A study of Mus musculus with 8 samples.

Results

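Cytosolic ribosomal protein genes were compared between sorted CD4+ CD8+ thymocytes of C57BL/6J mice and of NOD/ShiLtJ (NOD) mice, the inbred line used as a model of autoimmune diabetes because it becomes diabetic without treatment. They were chosen by name: protein-coding genes whose GENCODE M21 symbol is Rpl or Rps with a number (and an optional letter or an l, x or y), with Rplp0, Rplp1, Rplp2 and Rpsa, and without the Rps6k kinases and the genes named as -ps pseudogenes. The rule found 81 genes of the 53465 in the tables, 50 of the large subunit and 31 of the small subunit, on 19 chromosomes. No measured value entered the rule. By its title, the series asks how the variants behind type 1 diabetes change chromatin organization in T cells, and the RNA libraries show which genes differ between the strains. Each strain had 4 libraries of total RNA, and the labels give neither a treatment nor an age. Titles number each library by B and by T, without saying what these letters mean; libraries of the same strain and B were added up, giving samples 1 and 2 of each strain. Whether these samples are different mice is not stated, so a p-value here reflects the spread between samples alone, and that spread may be technical.

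Ribosomal proteins assemble with ribosomal RNA in the nucleolus into the large and small subunits, and each mature ribosome holds a single copy of nearly all of them. Their mRNAs are short, abundant and mostly start with a run of pyrimidines (a terminal oligopyrimidine tract), through which the mTOR pathway controls their translation together. Double-positive thymocytes, the stage that rearranges the T cell receptor alpha chain, are mostly small resting cells, and Rpl22 is known for its part in the development of alpha-beta T cells. The family also has a very large set of processed pseudogenes in mammalian genomes, copies of the spliced mRNA inserted elsewhere, so a short read can match several places.

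The libraries held 8.527 to 15.702 M reads in genes for C57BL/6J and 23.533 to 30.371 M for NOD, and the family received 103689 to 394190 reads per library. Levels are counts per M reads (CPM) after scaling, which are shares of the RNA measured. In such bulk samples, fewer cells of a type and less RNA per cell cannot be told apart. No double-positive marker passed the strain test, by edgeR or by DESeq2. By edgeR, 4 of the 12 had an unadjusted p below 0.05, 1 higher and 3 lower in NOD. Of the 12, 8 had a positive and 4 a negative log2 fold change (NOD over C57BL/6J), with a median of 0.07. Their summed CPM ranged from 17786 to 21351 in C57BL/6J libraries and from 13977 to 16534 in NOD libraries. Their mean log2(CPM + 1) ranged from 9.05 to 9.27 and from 9.05 to 9.19, with overlap. Rag1 averaged 8998 ± 796 CPM (C57BL/6J) and 5902 ± 950 CPM (NOD; SD, n = 2 samples here and below). Of the markers of other cells, edgeR called Cd44 (double-negative thymocytes) and Csf1r (macrophages) higher in NOD, the latter at 0.643 against 3.56 CPM. Of the 8 double-negative markers tested, however, 3 had a positive and 5 a negative log2 fold change, with a median of -0.19. The double-negative list summed to 412 and 352 CPM in the C57BL/6J samples and to 266 and 431 CPM in the NOD samples. DESeq2 called 3 myeloid and dendritic and 2 mature single-positive markers higher. Of the 12 mature single-positive markers edgeR called 0, 5 had an unadjusted p below 0.05, and the median log2 fold change was 0.44. Their mean log2(CPM + 1) ranged from 3.22 to 3.36 in C57BL/6J libraries and from 3.59 to 3.70 in NOD libraries, without overlap, and their summed CPM from 308 to 345 and from 302 to 366, with overlap. The 12 myeloid and dendritic markers summed to 50.7 to 69.6 CPM in C57BL/6J libraries and to 82.3 to 108 CPM in NOD libraries. In the same order, the 7 erythroid markers summed to 1.32 to 6.56 and to 1.54 to 13.6 CPM. The 7 B cell markers summed to 338 to 411 and to 248 to 377 CPM. Most of that sum was Ighm, which averaged 346 CPM (C57BL/6J) and 298 CPM (NOD). Of the 7 B cell markers, 4 had a positive and 3 a negative log2 fold change, with a median of 0.69, and edgeR called 0. The filter on low counts kept 7 of 7 B cell, 12 of 12 myeloid and dendritic, 4 of 7 erythroid, 4 of 10 stromal, 6 of 8 natural killer and gamma-delta T cell and 8 of 10 double-negative markers, and no marker was at 0 in all libraries. The 17 proliferation markers summed to 4625 and 5150 CPM in the C57BL/6J samples, to 5494 CPM in NOD sample 2 and to 1299 CPM in NOD sample 1, so NOD sample 1 stood apart. The part of these markers in the results below was not tested.

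Most ribosomal protein genes were well expressed. Of the 81 genes, 79 passed the filter on low counts, 77 averaged at least 10 CPM over the 4 samples, and 75 lay above the median of 24.0 CPM of all tested coding genes. As CPM per kilobase of annotated exon, the highest means given here were those of Rplp1 (744), Rpl8 (458), Rpl36 (368), Rps15 (368), Rpl4 (340), Rpl32 (334) and Rplp0 (248). Rplp0 and Rplp1 belong to the stalk of the large subunit that recruits the translation factors. The highest and lowest of the 77 genes differed 54.4-fold on this scale, although the proteins are built into ribosomes in nearly equal numbers. The scale counts every annotated exon, including those of retained introns. Divided by the length of the main coding mRNA instead, Rplp2, the partner of Rplp1, came first at 1186, ahead of Rps27 at 748, Rplp1 at 744 and Rpl8 at 731.

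The lowest were the paralogs known from other tissues. Rpl10l, an intronless paralog of X-linked Rpl10 that is known from the testis, had 0 counts in all 8 libraries. Rpl39l, another testis paralog, had 5 reads in all C57BL/6J libraries and 9 in all NOD libraries, and these were the only genes of the family left out of the test. Rpl3l, the paralog of Rpl3 known from muscle and heart, had 1, 2, 2 and 0 reads in the C57BL/6J libraries and 10, 6, 20 and 20 in the NOD libraries. Its NOD libraries lay above the C57BL/6J libraries at 0.258 to 0.756 CPM against 0 to 0.203 CPM, but the difference did not pass the test (adjusted p = 0.214). Its partner Rpl3 averaged 262 ± 57.4 CPM (C57BL/6J) and 217 ± 22.4 CPM (NOD). Rpl24 (9.31 per kilobase) and Rpl39 (13.7) were next above these paralogs, and 47.0% of the exon bases of Rpl24 are also annotated to Gm28037 on the same strand, where a read can be assigned to neither gene.

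The strain comparison called few ribosomal protein genes. With edgeR's quasi-likelihood test and Benjamini-Hochberg adjustment over all tested genes, 2 of 79 were lower in NOD and 0 were higher at an adjusted p below 0.05. Among all 17291 genes tested, 3.68% were called, 1.91% higher and 1.78% lower in NOD, so the 2.53% of the family was near the background. Without adjustment, 13 of the 79 had a p below 0.05, 3 higher and 10 lower, while 13.1% of all tested genes did, 6.81% higher and 6.3% lower. DESeq2 called 0 higher and 2 lower, and 4.24% of the genes to which it gave an adjusted p. Without NOD sample 1, whose proliferation markers were low, 0 were higher and 5 lower (Rpl34, Rpl29, Rpl35a, Rpl13a and Rps18), and 5.06% of all genes were called. Without C57BL/6J sample 1 the only call of the family was Rpl34, and 1.33% of all genes were called. The median log2 fold change of the family (NOD over C57BL/6J) was -0.09, beside 0.02 over all tested genes and 0.02 over coding genes. In 68 of the 79 the 95% interval lay within a 2-fold change in either direction, as it did in 7604 of 11791 coding genes.

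**Figure D1:**
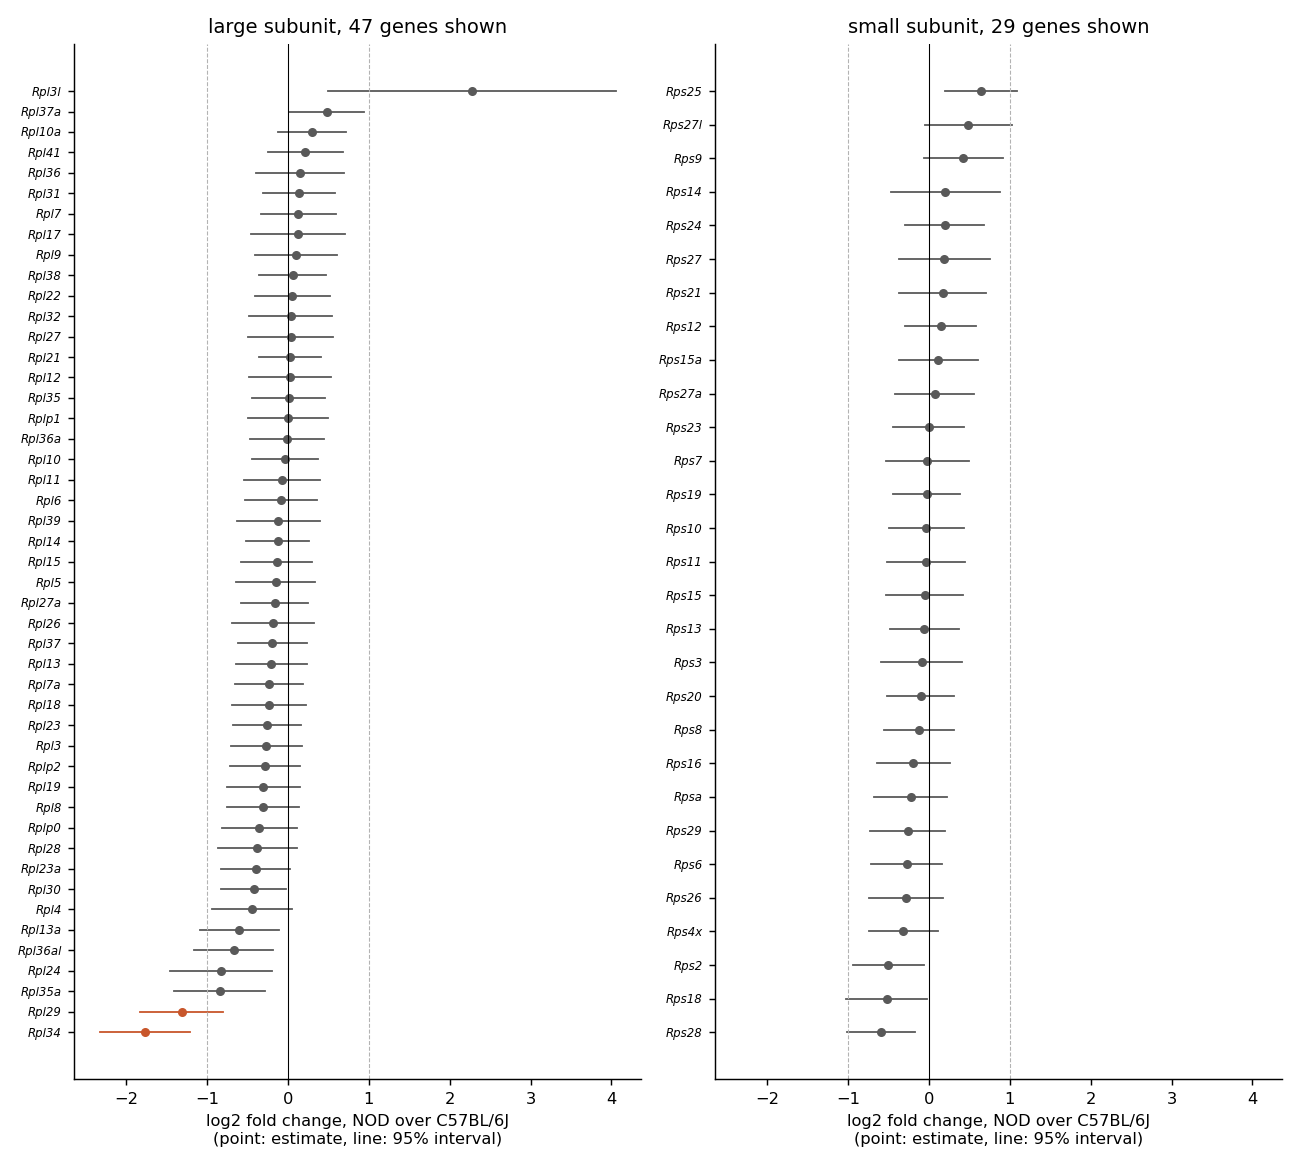
Log2 fold change of 76 of the 79 tested ribosomal protein genes, NOD over C57BL/6J, by subunit, with 95% intervals and dashed lines at a 2-fold change. The 2 genes that passed the test, Rpl34 and Rpl29, are coloured and lie at the lower end of the large subunit, and Rps25 is highest in the small subunit.

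Both genes that passed belong to the large subunit. Rpl34 (ENSMUSG00000062006, GRCm38 chromosome 3, 130726831 to 130730398, minus strand) encodes a core protein of that subunit. It stood at 349 and 230 CPM in C57BL/6J samples 1 and 2 and at 98.0 and 71.8 CPM in NOD samples 1 and 2. The 4 NOD libraries (60.6 to 115 CPM) lay below the 4 C57BL/6J libraries (222 to 366 CPM). The log2 fold change was -1.77 ± 0.24 (SE, adjusted p = 0.00501), a 3.41-fold difference, and leaving out each sample in turn kept the call, with log2 fold changes between -2.05 and -1.45. The call was lost when the samples were paired with their B numbers crossed, a setting chosen after seeing the data (log2 fold change -1.76, adjusted p = 0.0555). No other annotated gene overlaps its exons, and its 11 window-sharing pseudogenes in the tables summed to 14.6 CPM in C57BL/6J and 15.8 in NOD.

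Rpl29 (ENSMUSG00000048758, chromosome 9, 106429454 to 106431568, plus strand), a basic protein at the surface of the large subunit that was also described as a heparin-binding protein, stood at 99.2 and 70.7 CPM in C57BL/6J and at 29.1 and 39.2 CPM in NOD. Its library values were 62.9 to 110 CPM in C57BL/6J and 26.8 to 44.6 CPM in NOD and did not overlap. The log2 fold change was -1.31 ± 0.23 (adjusted p = 0.0133). The call was lost without C57BL/6J sample 1 (log2 fold change -1.06, adjusted p = 0.137), the sample in which all 79 tested genes lay above sample 2. Its copies are many: 106 pseudogenes share at least 1 window of 37 bases with it, and 41.8% of its own windows occur in another gene.

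The other large-subunit genes at the lower end did not pass. Rpl35a, needed for processing of the large subunit's RNA, stood at 109 and 75.0 CPM in C57BL/6J and at 61.0 and 41.2 CPM in NOD (log2 fold change -0.85 ± 0.25, adjusted p = 0.126), but passed without the filter on low counts (adjusted p = 0.00107). Its library values overlapped, at 68.8 to 110 and 36.6 to 73.6 CPM. Rpl24 stood at 13.3, 11.2, 6.73 and 7.09 CPM in the 4 samples, in the same order (-0.83 ± 0.28, adjusted p = 0.194), and Rpl36al at 37.3, 28.9, 22.3 and 19.2 CPM (-0.67 ± 0.22, adjusted p = 0.171). Rpl13a, which also takes part in translational silencing after interferon gamma, stood at 113, 77.1, 69.8 and 55.9 CPM (-0.60 ± 0.22, adjusted p = 0.244). Another gene annotated on the same strand covers 24.5% of the exon bases of Rpl36al and 35.4% of those of Rpl13a. At the upper end, Rpl37a had 96.6 and 65.6 CPM in C57BL/6J against 120 and 106 CPM in NOD (0.48 ± 0.21, adjusted p = 0.368). Rpl10a (0.30 ± 0.19) and Rpl41 (0.22 ± 0.21), which encodes the smallest of the proteins, had smaller differences that did not pass.

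None of the 31 small-subunit genes passed the edgeR or the DESeq2 test, and 4 had an unadjusted p below 0.05. Rps25, known for its part in initiation at some viral and cellular internal ribosome entry sites, was nearest on the upper side. It stood at 113 and 89.6 CPM in C57BL/6J and at 180 and 137 CPM in NOD (log2 fold change 0.65 ± 0.20, adjusted p = 0.141). All 4 NOD libraries (124.5 to 217 CPM) lay above the C57BL/6J libraries (86.9 to 120 CPM). Genes on the opposite strand cover 24.8% of its exon bases, and the strand setting of the counting is not given in the sources used here. The size of the Rps25 difference depended on the NOD sample used. With NOD sample 1 alone, whose proliferation markers were low, the log2 fold change rose to 0.82. With NOD sample 2 alone it fell to 0.44. Rps9 stood at 484, 328, 601 and 489 CPM (0.43 ± 0.22, adjusted p = 0.490). Rps28 was lowest at 78.4, 59.5, 45.6 and 45.7 CPM (-0.59 ± 0.19, adjusted p = 0.162), with all NOD libraries below the C57BL/6J libraries.

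The library values of the strains did not overlap for 2 genes higher in NOD (Rps25 and Rpl3l) and 5 lower in NOD (Rpl34, Rpl29, Rpl24, Rpl36al and Rps28) of the 79. Among all tested genes this held for 8.2% in the higher and 8.84% in the lower direction, and neither count of the family exceeds these shares. Rpl3l had 5 reads in all C57BL/6J libraries and 56 in all NOD libraries. It passed the filter on low counts only through its NOD samples, so its non-overlap follows in part from how it entered the test.

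**Figure D2:**
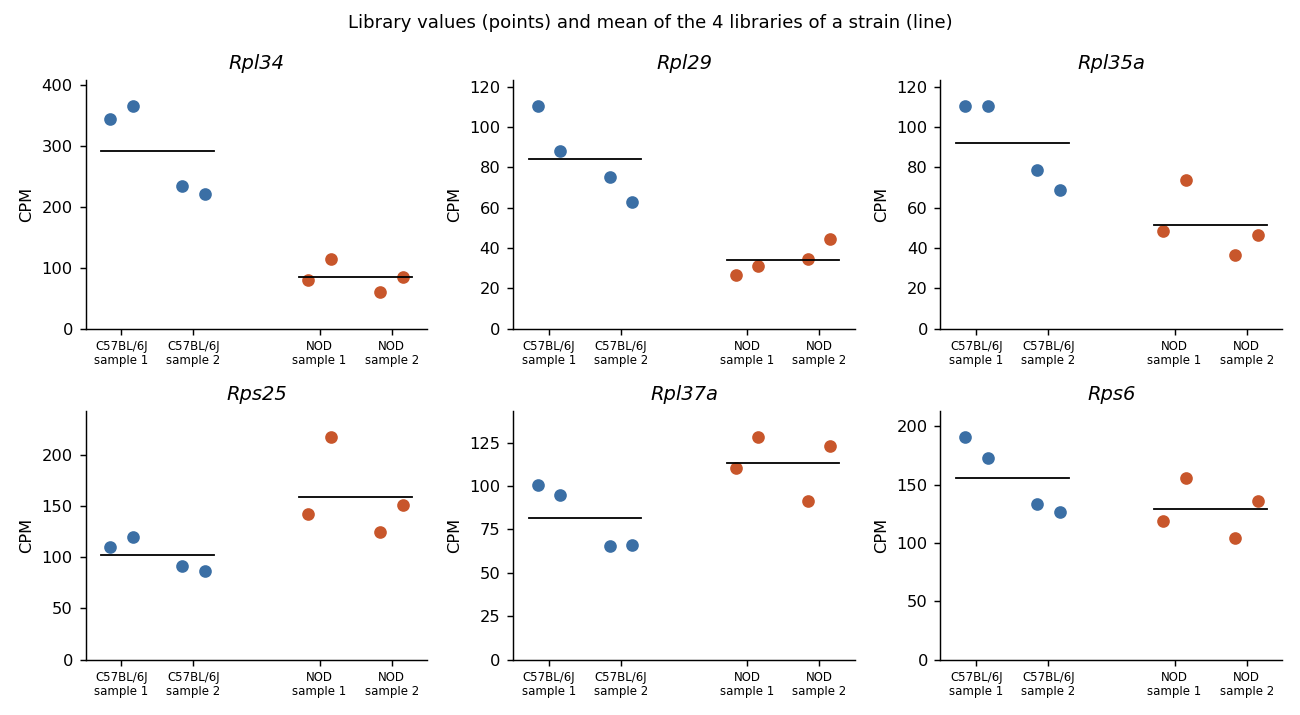
CPM of 6 genes in each library (points, C57BL/6J blue and NOD orange) with the mean of the 4 libraries of a strain (line). Rpl34 and Rpl29 are lower in all 4 NOD libraries, Rps25 is higher in all 4, and the values of Rpl35a, Rpl37a and Rps6 overlap between strains. Rps6 was added for display after its values were seen.

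Several proteins of the ribosome are encoded by a pair of genes, and no gene of these pairs passed the test. X-linked Rpl36a and its autosomal relative Rpl36al encode nearly the same protein. Rpl36a averaged 30.9 ± 5.05 CPM (C57BL/6J) and 30.8 ± 2.11 CPM (NOD), with a log2 fold change of -0.01 ± 0.20, while Rpl36al had the lower values given above without passing the test. Rps27 stood at 241 ± 60.8 and 275 ± 79.6 CPM, and its p53-responsive relative Rps27l at 18.2 ± 4.24 and 25.5 ± 3.11 CPM (0.49 ± 0.24, adjusted p = 0.458). Rpl10 (106 ± 19.6 and 103 ± 5.91 CPM), Rpl39 (20.4 ± 3.66 and 18.8 ± 0.0707 CPM) and X-linked Rps4x (183 ± 34.6 and 147 ± 16.3 CPM) did not pass either. Rpl22 averaged 274 ± 65.3 CPM (C57BL/6J) and 284 ± 41.5 CPM (NOD; 0.05 ± 0.21), with an interval from -0.41 to 0.52, so a 2-fold difference lies outside it. Rpl22l1, its relative outside the naming rule, stood at 11.3 ± 0.57 and 11.5 ± 1.8 CPM.

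The level of the family differed between samples and libraries of 1 strain. Its share of all reads in genes was 1.66% and 1.62% in the libraries of C57BL/6J sample 1, 1.28% and 1.22% in those of sample 2, 1.29% and 1.62% in those of NOD sample 1, and 1.11% and 1.56% in those of NOD sample 2. The strains overlapped, with means of 1.45% ± 0.274 in C57BL/6J and 1.38% ± 0.101 in NOD (SD, n = 2 summed samples). A comparison of 2 samples against 2 cannot give an exact two-sided permutation p below 0.333. The large subunit took 0.886% ± 0.167 and 0.804% ± 0.0252 of the reads, and the small subunit 0.563% ± 0.107 and 0.579% ± 0.0755.

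**Figure D3:**
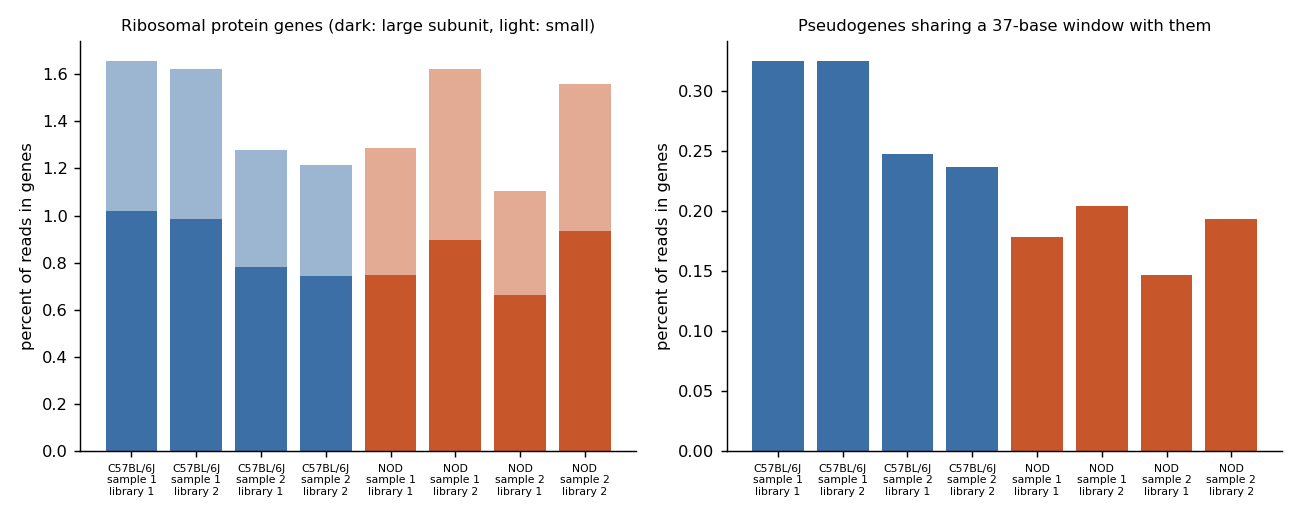
Percent of all reads in genes that fell on ribosomal protein genes (left; dark for the large and light for the small subunit) and on pseudogenes that share a 37-base window with them (right), for each of the 8 libraries. The strains overlap on the left, and on the right the NOD libraries (0.147% to 0.205%) lie below the C57BL/6J libraries (0.237% to 0.325%).

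All 79 tested genes were higher in C57BL/6J sample 1 than in sample 2, by 0.25 to 0.71 on the log2 scale with a median of 0.48. Of the coding genes with reads in both samples, 53.1% were higher in sample 1, with a median of 0.03, and of the mitochondrial ribosomal protein genes, which serve the ribosomes inside mitochondria, 67 of 78 were higher, with a median of 0.28. The NOD samples differed less evenly: 55 of 79 genes were higher in sample 1 than in sample 2, with a median of 0.20 and a range from -1.07 to 0.67. Beside them, 44.4% of the coding genes and 41 of 78 mitochondrial ribosomal protein genes were higher. In NOD sample 2, library 2 was above library 1 for 79 of 79 genes (median 0.38), and in NOD sample 1 for 74 of 79 (median 0.40). For coding genes these shares were 52.6% and 42.3%, and for mitochondrial ribosomal protein genes 68 of 78 and 53 of 78. The libraries of 1 C57BL/6J sample were closer, with medians of 0.12 and 0.10. The direction of the family between the strains therefore depended on the C57BL/6J sample used: the median log2 fold change was 0.15 without C57BL/6J sample 1 and -0.32 without sample 2. The strain difference of Rpl34 is larger than any of these differences within a strain.

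Short coding genes also differed between libraries, though not always as the family did. As the median deviation of log2(CPM + 1) from the mean of the 8 libraries, the family stood at 0.36, 0.23, -0.14 and -0.23 in the C57BL/6J libraries and at -0.19, 0.22, -0.33 and 0.09 in the NOD libraries, in the order of sample and library. The coding genes in the shortest of 5 equal bins of exon length stood at 0.17, 0.09, -0.09 and -0.12 and at -0.06, -0.02, -0.05 and 0.12. Their sign thus differed from that of the family in library 2 of NOD sample 1, and in library 2 of NOD sample 2 they lay above it. Reads in no annotated gene made up 40.0%, 51.1%, 53.9% and 53.8% of the C57BL/6J libraries and 58.6%, 59.1%, 54.6% and 46.6% of the NOD libraries. The share was lowest in the library with the highest family level, but highest in library 2 of NOD sample 1, where the family was above its mean. The part of gene length and of these reads in the family's level was not tested.

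Short pyrimidine strings near an annotated start were common in the family. RefSeq start regions (GRCm38.p6, from 250 bases before to 50 after an annotated start) were matched for 61 of the 81 genes. The strings CTTTC or CTTTT on the sense strand, at most 50 bases from a start, were found in 41 of the 61 (67.2%), against 24.4% of 27025 genes with such a region. The string CCGGAAG, the core bound by ETS factors, occurred on either strand in 41.0% against 9.93%, and AAGATGGC, the core bound by YY1, in 8.2% against 3.19%. A match is a description of the letters in the window and not a measured site. The string can lie before the start shown and so outside an mRNA from that start, as in the first Rpl34 line and the Rps25 line below. Both of these strings still lie inside the span GENCODE gives to the gene (for Rps25, 44407139 to 44410427), and that of Rpl34 lies downstream of its other start. The lines below give 30 bases on either side of a start, with CTTTC or CTTTT in capitals, for the lower Rpl34, for genes at either end of the fold changes and for Rps6, the kinase target on the small subunit. Both RefSeq starts of Rpl34 are shown, and for Rpl35a a start that holds the string was picked from several.
Rpl34, chr3:130730308-130730367, minus strand: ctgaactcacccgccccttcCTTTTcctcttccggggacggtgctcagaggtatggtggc
Rpl34, other start, chr3:130730369-130730428, minus strand: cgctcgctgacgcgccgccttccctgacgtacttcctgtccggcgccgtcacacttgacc
Rpl35a, chr16:33056452-33056511, plus strand: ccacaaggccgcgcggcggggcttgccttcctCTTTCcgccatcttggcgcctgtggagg
Rps25, chr9:44407684-44407743, plus strand: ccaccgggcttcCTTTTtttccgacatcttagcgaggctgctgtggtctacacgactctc
Rps28, chr17:33824533-33824592, minus strand: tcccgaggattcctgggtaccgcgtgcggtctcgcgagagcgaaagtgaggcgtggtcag
Rps6, chr4:86857338-86857397, minus strand: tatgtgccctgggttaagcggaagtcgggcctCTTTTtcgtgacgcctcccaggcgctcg
The strings are absent from the other start of Rpl34 and from the window of Rps28, the lowest of the small-subunit genes. They are present at the first start shown for Rpl34, which passed the strain test, and in genes that did not pass. No start region was matched for Rpl29, the other gene that passed.

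Most tested pseudogenes of the family had lower values in NOD. Every window of 37 bases, the length of the shorter read, was compared between GENCODE M21 transcripts. A median of 23.0% of the windows of a ribosomal protein gene occurred in another gene, from 0% in Rpl3l to 69.5% in Rplp1 and 90.5% in Rpl36. The windows came from every annotated transcript, including those with retained introns. A gene annotated at the same place also counted as another gene, as Gm45713 did for Rpl13a. Reads that match a gene and its copy equally well cannot be placed by their sequence. The deposited counter for reads with several alignments was 0 in every library, which does not show how such reads were handled. In all, 1419 pseudogenes shared a window with a family gene, 1313 of them were in the tables and 720 passed the filter on low counts. This list was made after the values were seen. Of the 720, 598 had a negative log2 fold change, 38 were lower and 3 higher in NOD by the test (5.69% called), and the median was -0.67. Some of the called pseudogenes passed the filter only through the strain where they were higher. These counts follow in part from that entry. Of 1186 other processed pseudogenes tested, 18 were lower and 13 higher (2.61% called), with a median of -0.29. Of the mitochondrial ribosomal protein genes, edgeR and DESeq2 called 0 of 78, 5 had an unadjusted p below 0.05, and the median was 0.02.

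**Figure D4:**
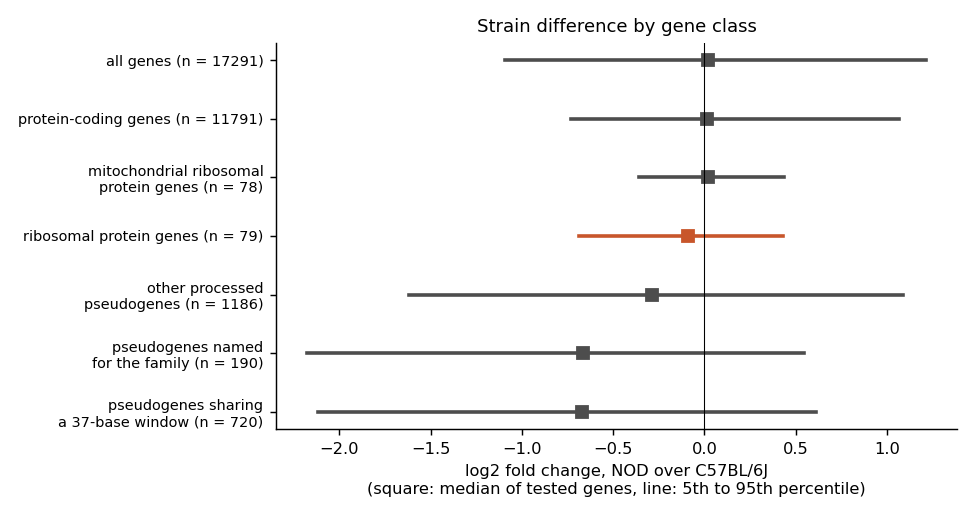
Median (square) and range from the 5th to the 95th percentile (line) of the log2 fold change, NOD over C57BL/6J, for classes of tested genes. Ribosomal protein genes have a median of -0.09, and the pseudogenes that share windows with them a median of -0.67.

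The copies can differ from the gene by very few bases. The 3 pairs below show 37 coding bases of the gene and of a pseudogene, read from the GENCODE M21 transcripts (GRCm38), with the differing base in capitals. A read needs to cover such a base for its sequence to tell gene and copy apart. They were chosen after their values were seen, the first 2 as pseudogenes that were lower in NOD and the last as a close copy of Rpl29.
Rpl37a (chromosome 1): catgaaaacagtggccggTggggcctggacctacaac
Gm4149 (chromosome 13): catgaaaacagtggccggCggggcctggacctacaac
Rplp1 (chromosome 9): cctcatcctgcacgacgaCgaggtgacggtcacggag
Gm11942 (chromosome 4): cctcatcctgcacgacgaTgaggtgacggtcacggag
Rpl29 (chromosome 9): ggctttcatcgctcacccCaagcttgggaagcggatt
Gm6344 (chromosome 13): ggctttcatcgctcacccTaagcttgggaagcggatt
Gm4149 differs from the coding part of Rpl37a in 1 of 276 bases, Gm11942 from that of Rplp1 in 9 of 342 and Gm6344 from that of Rpl29 in 3 of 480.

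Gm4149 stood at 108 and 71.6 CPM in C57BL/6J and at 31.9 and 29.9 CPM in NOD (log2 fold change -1.54 ± 0.22, adjusted p = 0.0051), while its parent Rpl37a had higher values in NOD. The libraries of Gm4149 ranged from 69.7 to 118 CPM in C57BL/6J and from 25.8 to 34.5 CPM in NOD. Gm11942 stood at 37.4 and 22.3 CPM against 4.97 and 5.59 CPM (-2.50 ± 0.30, adjusted p = 0.0019), and Rplp1 stood at 372 ± 111 and 371 ± 39.9 CPM. The 3 pseudogenes higher in NOD were Gm10263, a copy of Rps28 (3.22 against 11.4 CPM), Rps19-ps7 (0.191 against 2.66 CPM) and Gm14053 (0.147 against 1.13 CPM). Rps19-ps7 and Gm14053 passed the filter on low counts only through their NOD samples. Some of those lower in NOD passed it only through C57BL/6J, as Rpl21-ps15 did (1.16 against 0.0668 CPM). Gm6344 was under 1.5 CPM in every library.

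Summed over the pseudogenes of each gene, 76 of 79 genes with such reads had a lower sum in NOD. The exceptions were Rpl34, Rpl3 (21.2 against 24.9 CPM) and Rpl27 (29.0 against 34.3 CPM). Together the window-sharing pseudogenes took 0.325%, 0.325%, 0.247% and 0.237% of reads in genes in the C57BL/6J libraries and 0.179%, 0.205%, 0.147% and 0.194% in the NOD libraries, which did not overlap. The libraries held 4.99 to 5.17 reads of family genes per read of these pseudogenes in C57BL/6J and 7.2 to 8.06 in NOD. The other processed pseudogenes summed to a higher share in NOD, with 0.240% to 0.262% of reads in C57BL/6J and 0.275% to 0.337% in NOD. Gene by gene, however, most of them also had lower values in NOD, with a negative log2 fold change in 768 of 1186. Without C57BL/6J sample 1, 7 of the window-sharing pseudogenes were lower in NOD, against 38 with all samples. The reads of both strains were aligned to GRCm38, the sequence of C57BL/6J; whether this, unannotated copies or transcription of the pseudogenes bears on these values was not tested.

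**Figure D5:**
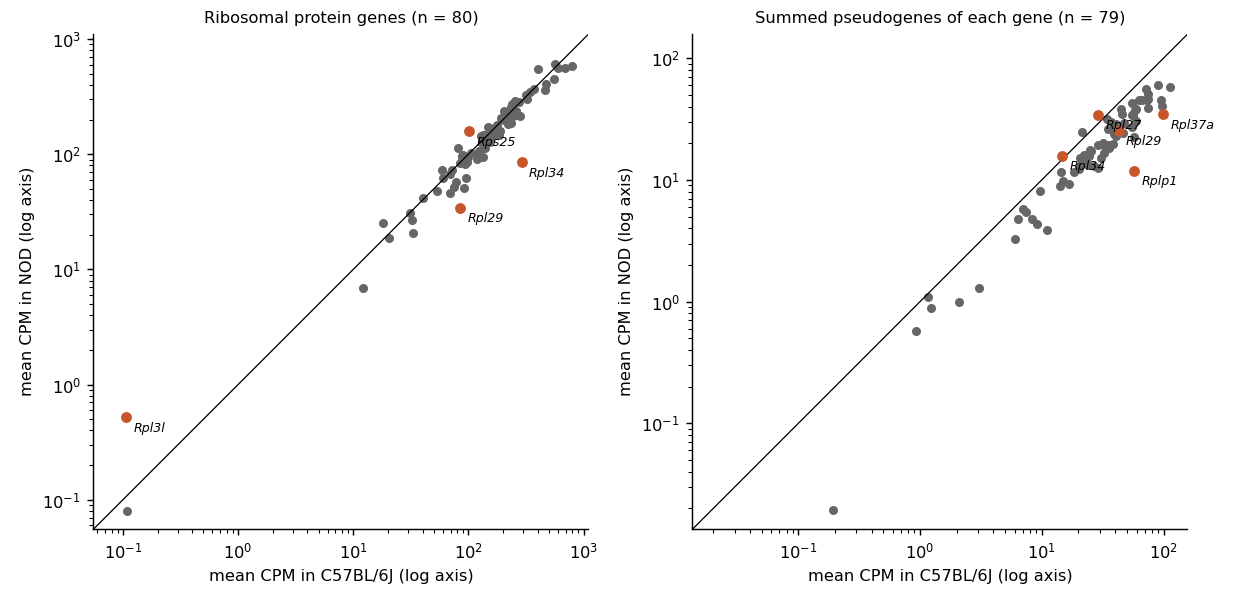
Mean CPM in C57BL/6J (x, log axis) and NOD (y, log axis) of each ribosomal protein gene (left) and of the summed pseudogenes sharing a 37-base window with it (right), with the line of equality. On the left most genes lie on the line and Rpl34 and Rpl29 below it, and on the right 76 of 79 sums lie below it. Genes at 0 in either strain are not drawn.

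Across the 79 tested genes, the share of windows found in another gene had a Spearman rho of 0.398 with the level per kilobase. With the log2 fold change it had a rho of -0.171. The share and the level per kilobase are both divided by a measure of annotated length, so the first rho is partly built in and is not read further. These are descriptions across genes that share the same libraries.

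Several ribosomal proteins are encoded outside the naming rule. Fau, which encodes a ubiquitin-like protein fused to a small-subunit protein, averaged 324 ± 100.1 and 341 ± 72.2 CPM, and Rack1, the scaffold protein of the small subunit, averaged 565 ± 152 and 531 ± 60.6 CPM. Rps3a1 (211 ± 45.3 and 199 ± 6.99 CPM), Rps27rt (70.7 ± 19.8 and 79.3 ± 19.1 CPM) and Rpl7l1 (80.2 ± 6.76 and 74.8 ± 0.289 CPM) did not pass.

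Other genes that build and regulate ribosomes were taken as lists. Of 49 ribosome assembly factors, edgeR and DESeq2 called 0, 1 had an unadjusted p below 0.05, and the median log2 fold change was -0.06. Among them nucleolin (Ncl) stood at 1388, 1093, 772 and 1119 CPM in the 4 samples and nucleophosmin (Npm1) at 271, 233, 151 and 207 CPM, both lowest in NOD sample 1. All 10 dedicated chaperones of ribosomal proteins were uncalled by both tools, with 0 at an unadjusted p below 0.05 and a median of -0.10. Of 22 genes for RNA polymerase I and its transcription, edgeR called 0 and DESeq2 1, 2 had an unadjusted p below 0.05, and the median was -0.03. Of 23 translation factors with terminal oligopyrimidine mRNAs, 21 had a negative and 2 a positive log2 fold change, with a median of -0.20. Among them Eef1a1, which carries aminoacyl-tRNA to the ribosome, stood at 1650, 1221, 1213 and 1296 CPM (adjusted p = 0.805). Eef2, which drives translocation, stood at 1997, 1528, 1047 and 1527 CPM (adjusted p = 0.485). Of 26 regulators of ribosomal protein mRNA, among them mTOR and Larp1, both tools called 0, 0 had an unadjusted p below 0.05, and the median was -0.01. Of 10 genes of the p53 response, which senses free ribosomal proteins through Mdm2, edgeR called 0 and DESeq2 1, 2 had an unadjusted p below 0.05, and the median was 0.21. Mdm2 itself averaged 172 ± 9.81 CPM (C57BL/6J) and 172 ± 12.2 CPM (NOD).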

How the data were processed

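RNA of 8 libraries was measured. The authors deposited raw counts per Ensembl gene; the submitters' processing notes name the build GRCm38, the aligner STAR (2.5.0a) and the counter HTSeq (0.6.1). The annotation release and the strand setting are not given in the sources used here. Reads outside genes (40.0% to 59.1%) and ambiguous reads (0.69% to 2.38%) were left out. Libraries sharing a strain and a B number differed beyond sampling noise and were summed, giving 2 samples per strain and 2 residual degrees of freedom. Genes were filtered with filterByExpr, scaled by TMM and tested with the two-sided quasi-likelihood F-test of edgeR 4.0.16 in R 4.3.3, adjusted over all 17291 tested genes; DESeq2 1.42.0 was an alternative. Symbols, coordinates and transcripts came from GENCODE M21, which held 53360 of the 53465 identifiers, and start regions from RefSeq. Named genes were those passing the test, the 8 most and 5 least abundant per kilobase, the 6 highest and 6 lowest fold changes from 10 CPM, and paralogs; of the other lists, those passing and the 2 most abundant. The members and lists were chosen with earlier results of these data known. Riok2, Syo1 and Tiar of the lists were not matched. Results on some genes of the family and lists are not reported here.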

Additional observations from a re-analysis of the deposited data

How the results depend on the processing

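Rpl34 was lower in NOD at an adjusted p below 0.05 under every alternative except the crossed numbers (adjusted p = 0.0555); the adjusted p of Rpl29 ranged from 2.27e-08 to 0.137. The labels give both strains the B numbers 1 and 2, without saying whether same-numbered samples have anything else in common. Deviations of same-numbered samples correlated at -0.17 over all tested genes and at 0.477 over the family. The replicate block gave 0 members higher, 2 lower, 513 of 17291 tested genes called and 23 window-sharing pseudogenes lower. With crossed numbers, chosen after seeing the data, 1 member was lower, 768 of 17291 tested genes were called and 41 window-sharing pseudogenes were lower. Without the low-count filter 1 member was higher (Rps25) and 3 lower (Rpl34, Rpl29 and Rpl35a). In that setting 1188 of 35135 tested genes passed, and 74 window-sharing pseudogenes were lower. With the 8 libraries as separate samples, 1 member was higher, 6 were lower, 1535 of 15227 tested genes passed and 117 such pseudogenes were lower. That fit treats the libraries of 1 sample as independent, which the labels do not establish, so its p-values can be too small. DESeq2 gave 61 such pseudogenes lower, and a test of coding genes alone holds 0 of them. Leaving out each sample in turn, with the lone sample assumed to vary like the others, gave 0 to 1 members higher, 1 to 5 lower, a family median log2 fold change of -0.32 to 0.15, 256 to 1389 genes called and 7 to 51 window-sharing pseudogenes lower. Without C57BL/6J sample 1, 256 genes were called, and without NOD sample 2, 1389. The family's share of reads, NOD minus C57BL/6J, was -0.0657 percentage points, -0.0764 over coding reads and -0.0993 with named pseudogenes, and -0.259 to 0.128 with a sample left out. Uncalled genes near no difference changed sign. Their ranges with a sample left out were -0.23 to 0.16 for Rpl10, -0.18 to 0.31 for Rpl22, -0.23 to 0.34 for Rpl32, -0.16 to 0.51 for Rpl36, -0.17 to 0.16 for Rpl36a, -0.30 to 0.0724 for Rpl39, -0.0077 to 0.46 for Rpl41, -0.29 to 0.33 for Rplp1, -0.33 to 0.26 for Rps15 and -0.14 to 0.47 for Rps27. Rpl36a stood at 0.0041 without the filter and 0.0023 over 8 libraries. Rplp1 stood at 0.0098 without the filter, 0.0267 with the replicate block, 0.0266 with crossed numbers, 0.0027 over 8 libraries and 0.0019 when scaled without Gm42418, a setting chosen after seeing the data. The cause of these changes was not tested.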
